A study of Mus musculus with 8 samples.

Results

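Cholesterol synthesis was followed through 8 genes, Srebf2 and 7 enzymes it is known to drive (Hmgcs1, Idi1, Fdps, Fdft1, Sqle, Cyp51 and Ebp), out of 22911 genes that had a probe on the array. A gene was taken when a non-control probe carried one of its RefSeq transcripts. This gave 11 probes, and all 8 genes passed the filter on dim probes. The tissue was growth plate cartilage of the femur from 12 day old littermate mice, hybridised to 1-colour Agilent mouse arrays from 100 ng of RNA each. The groups were 4 Cre mice and 4 CreTW mice, with 1 array per mouse. Cre recombinase was carried by all 8 mice, and what the groups compare is therefore the TW allele on a Cre background. From knowledge of the study, TW is a mutant form of Twinkle, the helicase of mitochondrial DNA, switched on by Cre in cartilage. The labels do not name the promoter that drives Cre. The series title gives the question as the effect of losing the respiratory chain on cartilage and growth.

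Cells make cholesterol from acetyl-CoA by way of mevalonate, isoprenoids and squalene. SREBP2, encoded by Srebf2, is the transcription factor that sets the transcript levels of nearly the whole pathway. When sterol in the endoplasmic reticulum is low, SCAP carries SREBP2 to the Golgi, where the site-1 and site-2 proteases (Mbtps1 and Mbtps2) release its active part, and INSIG proteins hold the complex back when sterol is high. Growth plate cartilage depends on the pathway, since hedgehog proteins carry cholesterol and inherited defects of several late enzymes, EBP among them, disturb cartilage and bone. Array levels report transcripts and do not measure processed SREBP2 or sterols.

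RefSeq promoter windows (GRCm38.p6 build) were at hand for 5 of the 8 genes, Srebf2, Hmgcs1, Idi1, Cyp51 and Ebp. They are shown as background, and the part of promoter sequence in the profiles over the arrays, described further on, was not tested. Each line holds the 200 bases before the transcription start. Capitals mark the core of a sterol regulatory element (CACNCCAC, bound by SREBPs), the CCAAT box (bound by NF-Y) and the GC box GGGCGG (bound by Sp1), each searched on both strands.
Srebf2, chr15:82147069-82147268, plus strand: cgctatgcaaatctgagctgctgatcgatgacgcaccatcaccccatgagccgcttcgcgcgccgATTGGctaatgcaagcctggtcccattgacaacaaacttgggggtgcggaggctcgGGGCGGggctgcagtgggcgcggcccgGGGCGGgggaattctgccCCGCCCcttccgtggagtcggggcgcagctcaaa
Hmgcs1, chr13:119690151-119690350, plus strand: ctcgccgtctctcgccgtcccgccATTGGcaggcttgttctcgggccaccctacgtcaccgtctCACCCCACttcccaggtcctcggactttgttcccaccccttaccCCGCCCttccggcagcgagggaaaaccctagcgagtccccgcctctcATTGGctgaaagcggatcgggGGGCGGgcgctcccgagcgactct
Idi1, chr13:8885406-8885605, plus strand: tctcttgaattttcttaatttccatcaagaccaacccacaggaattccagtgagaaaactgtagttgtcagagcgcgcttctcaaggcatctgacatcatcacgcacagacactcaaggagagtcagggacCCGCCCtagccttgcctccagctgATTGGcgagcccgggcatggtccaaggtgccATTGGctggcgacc
Cyp51, chr5:4104698-4104897, minus strand: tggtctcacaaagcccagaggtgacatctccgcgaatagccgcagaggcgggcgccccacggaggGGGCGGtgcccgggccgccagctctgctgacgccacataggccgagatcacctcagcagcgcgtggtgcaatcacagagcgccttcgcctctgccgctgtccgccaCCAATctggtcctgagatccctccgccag
Ebp, chrX:8193513-8193712, minus strand: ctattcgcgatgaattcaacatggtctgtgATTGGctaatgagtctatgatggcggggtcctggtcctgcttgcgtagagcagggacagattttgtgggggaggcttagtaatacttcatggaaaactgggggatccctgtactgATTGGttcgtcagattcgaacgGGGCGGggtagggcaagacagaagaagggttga

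Over the whole windows, which run from 250 bases before to 50 after the start, a CCAAT box stood in 5 of 5 and a GC box in 5 of 5. Among all 32851 windows of the table, 37.4% held a CCAAT box, 35.7% a GC box and 12.8% both. For the other enzymes of the pathway, 9 of 15 windows held both. The sterol element core stood in 1 of the 5 windows, that of Hmgcs1, where it reads CACCCCAC and begins 136 bases before the start. It was present in 6.24% of all windows and in 1 of 15 windows (6.67%) of the other enzymes. Only this string was searched, so a sterol element of other letters would be neither counted nor marked. No match in these 5 windows overlapped another, and the matches are of letters only.

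On the arrays each level is the log2 of the background-subtracted spot signal minus the array's own 75th percentile, so that 0 is the 75th percentile of all probes of that array. Differences are CreTW minus Cre with their standard error (SE), from limma fitted over 23105 features, and a feature was called when its Benjamini-Hochberg adjusted p was under 0.05. In that fit 80 features (0.346%) passed, 53 higher and 27 lower in CreTW, and 2479 (10.7%) had an unadjusted p under 0.05. The median log2 difference over all features was -0.01. The 75th percentile signals ranged from 144 to 187 over the arrays, 45.4% to 57.9% of probes were well above background, and 0 probes were saturated. The cartilage label was checked on 9 chondrocyte markers, all of which were measured. Col2a1, the main collagen of cartilage, lay between 9.66 and 10.18 on the 8 arrays. Markers of bone cells were bright too, with Col1a1 between 8.95 and 9.35 and the osteoclast gene Acp5 between 7.54 and 9.70. The check therefore does not show that the samples were cartilage cells alone. The endogenous Twnk probe was dim, from -2.64 to -1.85 with the groups overlapping, and whether it can see the transgene is not known here. All 8 arrays lay on 1 slide, 4 in each of its 2 rows with both genotypes in each row, and p-values measure the spread between these mice.

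None of the 8 genes passed the threshold, against 0.346% of all features. Of the 8 differences 7 were negative and 1 positive, with a median of -0.15. Levels of 7 of the genes overlapped between genotypes, and for all 8 the difference was smaller than the range of the 4 Cre arrays. Ebp was the exception to the overlap, with all 4 CreTW arrays below all 4 Cre arrays. Every member was well above background on all 8 arrays, so dimness did not limit these values.

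Srebf2 encodes the regulator itself. Its level was -0.33, 0.06, -0.24 and 0.30 in Cre mice 1 to 4 and 0.11, 0.20, -0.32 and 0.01 in CreTW mice 1 to 4. The genotypes covered the same range, and the lowest and the highest array were both Cre. The difference was 0.05 ± 0.17 (SE, adjusted p = 0.936 by limma), with a 95% confidence interval from -0.33 to 0.43.

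Hmgcs1 is a synthase of the first, cytosolic steps on the way to mevalonate. Its level was 4.35, 4.59, 4.12 and 4.99 in Cre and 4.48, 4.33, 3.99 and 4.59 in CreTW. Cre mouse 4 was highest and CreTW mouse 3 lowest, and the other 6 arrays were interleaved. The difference was -0.16 ± 0.20 (SE, adjusted p = 0.796 by limma), with an interval from -0.62 to 0.30.

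Idi1 converts isopentenyl diphosphate to dimethylallyl diphosphate, the starter of isoprenoid chains. Its level was 1.65, 1.98, 1.56 and 2.48 in Cre and 1.89, 1.72, 1.62 and 1.93 in CreTW. All 4 CreTW arrays fell inside the Cre range. The difference was -0.13 ± 0.20 (SE, adjusted p = 0.838 by limma), with an interval from -0.58 to 0.32.

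Fdps joins these units into farnesyl diphosphate, the branch point from which ubiquinone, dolichol and prenylated proteins are also made. Its level was 4.15, 4.75, 4.09 and 4.996 in Cre and 4.18, 4.25, 3.70 and 4.18 in CreTW. Fdps had the largest difference of the 8 genes, yet 2 Cre arrays lay below 3 of the CreTW arrays. The difference was -0.42 ± 0.23 (SE, adjusted p = 0.555 by limma), with an interval from -0.93 to 0.10, and the two-sided exact permutation p for the gene alone was 0.286. Without Cre mouse 4 the Fdps difference was -0.25, and it was -0.24 within row 1 and -0.60 within row 2 of the slide.

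Fdft1, squalene synthase, commits farnesyl diphosphate to sterols. Its level was 2.81, 3.15, 2.69 and 3.54 in Cre and 3.16, 3.13, 2.72 and 3.06 in CreTW. The CreTW arrays again fell inside the Cre range, and the difference was -0.03 ± 0.19 (SE, adjusted p = 0.966 by limma), with an interval from -0.47 to 0.41. A second Fdft1 probe gave -0.01 ± 0.16 (SE).

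Sqle, squalene epoxidase, is a rate-controlling enzyme and uses molecular oxygen. Its level was 3.32, 3.92, 3.33 and 4.25 in Cre and 3.72, 3.71, 3.22 and 3.70 in CreTW. CreTW mice 1, 2 and 4 were nearly equal, while the Cre arrays split into a pair near 3.3 and a pair of 3.92 or more. The difference was -0.12 ± 0.23 (SE, adjusted p = 0.882 by limma), with an interval from -0.64 to 0.40.

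Cyp51 removes the 14-alpha methyl group from lanosterol, the first step on the sterol ring. Its level was 2.45, 2.78, 2.13 and 3.003 in Cre and 2.48, 2.42, 2.16 and 2.54 in CreTW. All 4 CreTW values fell inside the Cre range, with a difference of -0.19 ± 0.19 (SE, adjusted p = 0.736 by limma) and an interval from -0.62 to 0.24. A second Cyp51 probe gave -0.18 ± 0.23 (SE), close to the first.

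Ebp encodes the sterol isomerase that moves a double bond in the ring late in the pathway, and the gene lies on the X chromosome. Its level was 4.46, 4.66, 4.42 and 4.70 in Cre and 4.32, 4.21, 4.38 and 4.36 in CreTW. The groups did not overlap, as for 2.81% of all features in this direction, and the gap between the lowest Cre and the highest CreTW array was small beside the spread of the Cre arrays. The difference was -0.24 ± 0.10 (SE), or 1.18-fold lower, with an interval from -0.46 to -0.03, and did not pass (unadjusted p = 0.0326, adjusted p = 0.425 by limma). The two-sided exact permutation p for the gene alone was 0.0286, the smallest that 4 against 4 arrays allow. A second Ebp probe read 1.28, 1.57, 1.27 and 1.39 in Cre and 1.24, 1.04, 1.24 and 1.41 in CreTW. There CreTW mouse 4 lay above 3 of the Cre mice, and the difference was -0.14 ± 0.11 (SE, adjusted p = 0.667 by limma over single probes).

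**Figure D1:**
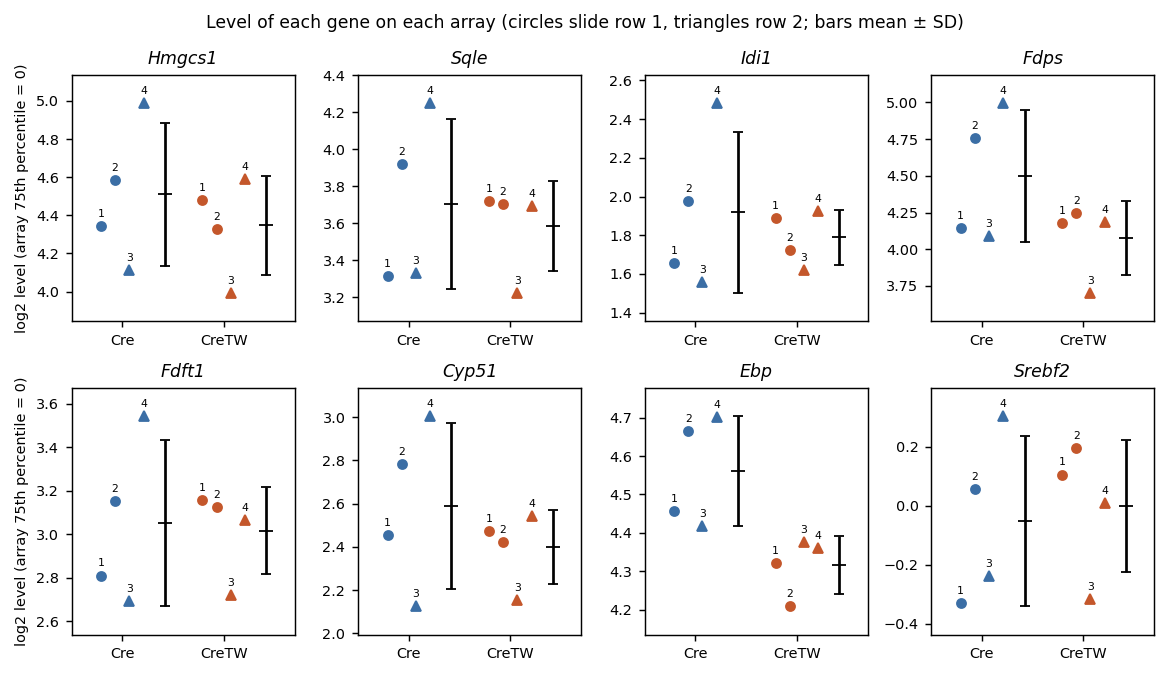
Each panel plots one gene, with the log2 level (0 is the array's 75th percentile) on the vertical axis and genotype on the horizontal axis; numbered points are mice, circles row 1 and triangles row 2 of the slide, and bars are the mean ± SD of 4 arrays. Cre mouse 4 is the highest point in all 8 panels, and Ebp is the panel in which the genotypes do not overlap.

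For all 8 genes the genotype difference was smaller than the range of the Cre arrays. It was also smaller than the range of the CreTW arrays, except for Ebp (difference -0.24, CreTW range 0.17). Cre mouse 4 was the highest array for 8 of 8 genes, whereas it was highest for 18.5% of all features. CreTW mouse 3 was lowest for Hmgcs1, Sqle and Fdps, and Cre mouse 3 for Idi1, Fdft1 and Cyp51. From the lowest to the highest array, Fdps spanned 2.45-fold, Sqle 2.04-fold, Hmgcs1 1.99-fold and Ebp 1.41-fold. The SD within genotypes stood between the 67.3 and 83.0 percentile of all features for 7 genes, and at the 19.4 percentile for Ebp. Among CreTW mice the spread was narrower than among Cre mice for all 8 genes, as for Idi1 (SD 0.14 against 0.42, n = 4 each). Part of the Cre spread came from Cre mouse 4, which lay 0.04 (Ebp) to 0.50 (Idi1) above the next Cre mouse. The genes vary together, as described next, so these are not 8 separate observations. The difference in spread was not tested.

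After the genotype mean was taken off each gene, the 28 pairs of the 8 genes had a median Pearson r of 0.930 over the 8 arrays. The lowest pair was Ebp with Srebf2 at 0.436 and the highest Sqle with Fdps at 0.994. Without Ebp the 21 pairs ran from 0.826 upwards, with a median of 0.943. All pairs of features had a median r of 0.03, and 3.01% of them reached 0.8, against 21 of the 28 pairs here. With the mean of the other 7 genes, Ebp had an r of 0.658 and the others 0.884 (Srebf2) to 0.981 (Sqle). These are descriptions over 8 arrays that share one scaling per array. The median r was 0.876 without Cre mouse 4, and 0.863 without Cre mice 3 and 4, the pair of arrays farthest from the median of the genes' mean deviation. In that last setting the lowest pair with Ebp fell to 0.0093 and the 21 pairs without Ebp kept a median of 0.934.

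The mean of the 8 genes, each centred on its mean over the arrays, was -0.16, 0.22, -0.26 and 0.51 in Cre mice 1 to 4 and 0.02, -0.02, -0.33 and 0.03 in CreTW mice 1 to 4. The same mean over 9 chondrocyte markers (Col2a1, Acan, Sox9, Comp, Matn1, Matn3, Col9a1, Col11a1 and Hapln1) was -0.32, 0.16, -0.15 and 0.60 in Cre and 0.09, 0.16, -0.41 and -0.12 in CreTW. Both were highest in Cre mouse 4 and lowest in CreTW mouse 3. The osteoclast markers ran the other way in Cre mouse 4, at -0.56 against 0.65 to 0.87 in the other Cre mice. So did the osteoblast (-0.58 against 0.29 to 0.50) and endothelial markers (-0.47 against 0.18 to 0.28). The adipocyte (-0.97), erythroid (-0.61) and marrow myeloid (-1.51) means were likewise lowest of the Cre mice there. The skeletal muscle mean (-2.03) was not the lowest there, and the fibroblast and tendon mean (-0.01) was the highest of the Cre mice. In bulk cartilage, fewer cells of a type and less RNA per cell cannot be told apart, and the part of cell makeup in the cholesterol profile was not tested. Cre mouse 4 and CreTW mouse 3 lay within the range of the other arrays in 75th percentile signal (163 and 161) and in probes above background (49.9% and 51.7%).

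**Figure D2:**
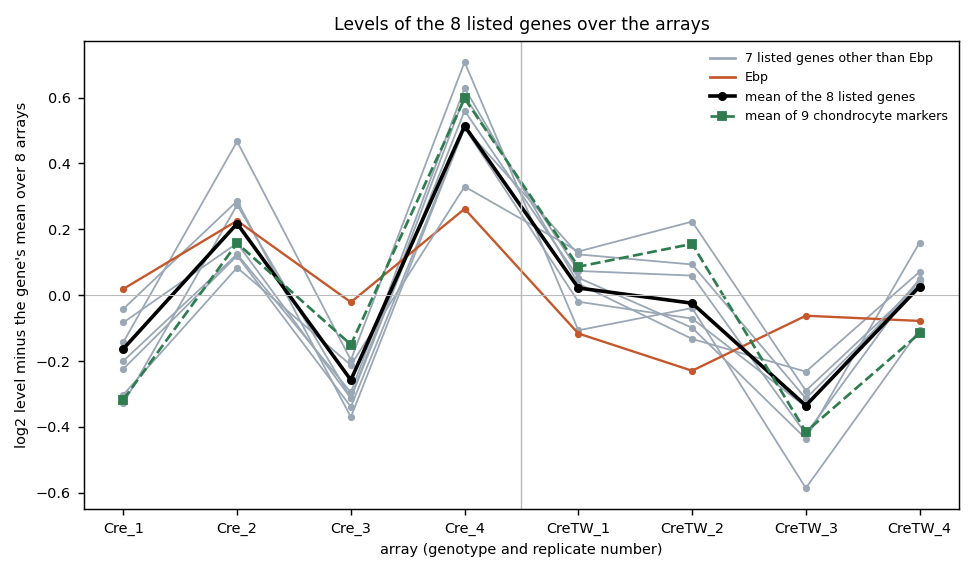
Log2 level minus the gene's mean over 8 arrays (vertical) for each array (horizontal, Cre left and CreTW right of the line); grey lines are 7 of the genes, the orange line Ebp, the black line the mean of all 8 and the dashed green line the mean of 9 chondrocyte markers. The black line runs from -0.33 in CreTW mouse 3 to 0.51 in Cre mouse 4, and Ebp departs from it among the CreTW mice.

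Other cell types were read from marker lists, with the summed level of each list given in multiples of the array's 75th percentile signal. Skeletal muscle markers had positive differences for 7 of 7 measured genes, with sums of 5.58 to 27.8 in Cre and 8.69 to 244 in CreTW. Fibroblast and tendon markers were positive for 6 of 6, and their sums did not overlap, at 178 to 243 in Cre and 263 to 353 in CreTW. These sums are mostly Col3a1, with a log2 level of 7.09 to 7.54 in Cre and 7.59 to 8.07 in CreTW. Taken singly, Col3a1, Dpt and Thbs4 did not overlap, as for 3.89% of all features in this direction, whereas Tnmd, Scx and Postn did. Osteoclast markers were negative for 5 of 5, at 415 to 1161 in Cre and 273 to 1012 in CreTW. In none of the lists did a marker pass the threshold, and apart from the fibroblast and tendon list the sums of the genotypes overlapped.

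Chondrocyte markers were negative for 8 of 9, with sums of 1986 to 3227 in Cre and 1947 to 2545 in CreTW. Osteoblast markers were negative for 5 of 5, at 547 to 707 and 539 to 685. These sums are mostly Col1a1, with a log2 level of 8.95 to 9.35, and say little of the dimmer markers. Over the arrays Ibsp ranged from 3.48 to 5.34 and Dmp1 from 1.51 to 3.43. Adipocyte sums were 11.2 to 27.4 and 11.9 to 20.6, and erythroid sums 9.18 to 15.6 and 5.45 to 12.8. Endothelial sums were 14.7 to 23.7 and 14.2 to 25.8, and marrow myeloid sums 2.24 to 37.1 and 3.53 to 11.49. Myog, Calcr, Plin1, Cidec, Cfd and Epb42 did not pass the filter on dim probes, and Epb42 was not well above background on any array. The part of these cell types in the differences of the cholesterol genes was not tested.

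In the rest of the pathway the differences were small and of the same sign. Of the 11 other enzymes reported here 0 passed the threshold, 11 of 11 differences were negative, and their median was -0.18 against -0.01 over all features. With the 7 enzymes above this makes 18 of 18 negative, a median of -0.17, and 18 of 18 with Cre mouse 4 as the highest array. Since the enzymes vary together, the 18 signs are not 18 separate observations.

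Dhcr7, which makes cholesterol from 7-dehydrocholesterol in the last step of one branch, had the largest difference of these 18 enzymes. Its level was -0.63, -0.09, -0.14 and 0.10 in Cre and -0.55, -0.52, -0.85 and -0.71 in CreTW. Cre mouse 1 lay among the CreTW mice and the other Cre mice above them. The difference was -0.46 ± 0.16 (SE), with an unadjusted p of 0.0189 and an adjusted p of 0.358 by limma. It was -0.17 within row 1 of the slide and -0.76 within row 2. Pmvk, a kinase of the mevalonate stage, was at -0.43 ± 0.19 (SE, unadjusted p = 0.0486, adjusted p = 0.460 by limma). With Ebp these were the 3 of 18 enzymes with an unadjusted p under 0.05, against 10.7% of all features.

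The mevalonate enzymes Mvk and Mvd differed by -0.20 and -0.25. Around the lanosterol stage Lss was at -0.18, Tm7sf2 at -0.05, Msmo1 at -0.0047, Nsdhl at -0.08, Hsd17b7 at -0.09 and the scaffold gene Erg28 at -0.13. The late desaturase Sc5d was at -0.21. None of these genes passed the threshold. Acat2 had no matched probe.

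**Figure D3:**
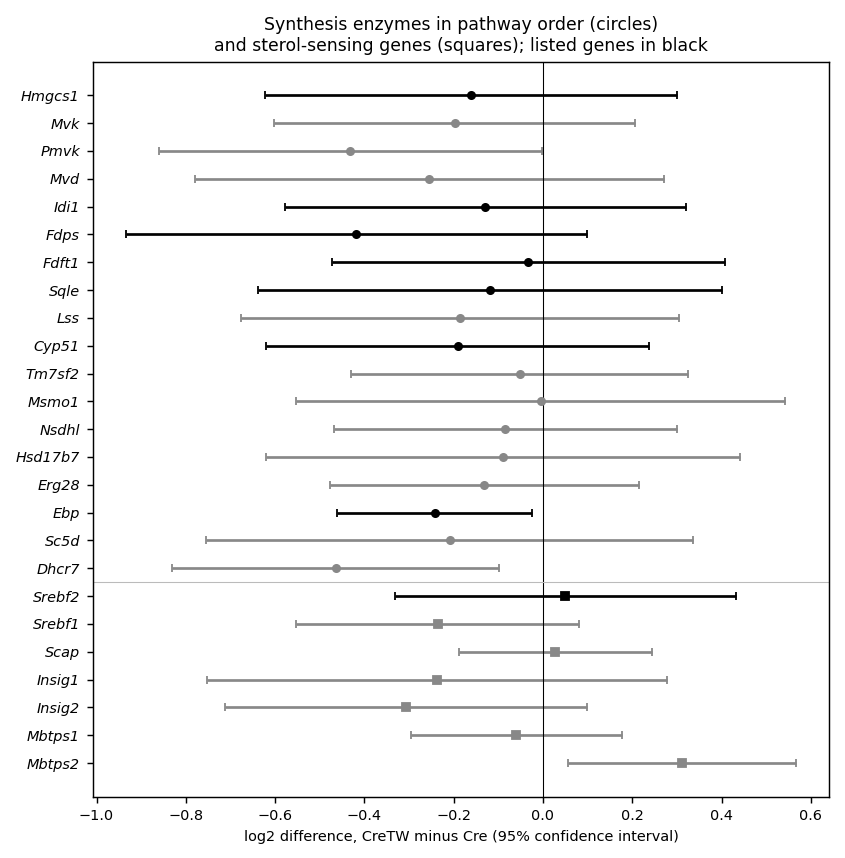
Log2 difference, CreTW minus Cre, with its 95% confidence interval (horizontal) for 18 synthesis enzymes in pathway order (circles) and 7 sterol-sensing genes (squares); the 8 listed genes are black. All 18 circles lie left of 0, from -0.46 for Dhcr7 to -0.0047 for Msmo1, and the intervals of Pmvk, Ebp and Dhcr7 end below 0 before adjustment.

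Of 7 sterol-sensing genes, Srebf2 included, 0 passed, 4 differences were negative and 3 positive, and the median was -0.06. Mbtps2, the site-2 protease, read 0.78, 0.74, 0.32 and 0.61 in Cre and 0.91, 0.92, 0.98 and 0.88 in CreTW. All 4 CreTW arrays lay above all 4 Cre arrays, as for 3.89% of all features, with a difference of 0.31 ± 0.11 (SE, adjusted p = 0.378 by limma), 0.15 within row 1 of the slide and 0.47 within row 2. Mbtps1, the site-1 protease, was at -0.06 ± 0.10 and the escort Scap at 0.03 ± 0.09 (SE). The sister factor Srebf1 was at -0.24 ± 0.14 (SE). Insig1, itself raised by SREBPs, was at -0.24 ± 0.23 and Insig2 at -0.31 ± 0.18 (SE). The Insig1 difference was -0.07 without CreTW mouse 3 and -0.09 without Cre mouse 4. Over the arrays the paralogues diverged, since Insig1 had an r of 0.940 with the mean of the 8 genes and Insig2 one of -0.71.

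Of 8 genes of sterol uptake and traffic 0 passed and 8 were negative, with a median of -0.14. Tmem97 was at -0.40 ± 0.18 and Scarb1, a receptor for high-density lipoprotein, at -0.22 ± 0.14 (SE). Npc1 and Npc2, which export cholesterol from lysosomes, were at -0.06 ± 0.09 and -0.02 ± 0.13 (SE), and over the arrays they diverged, with an r of 0.682 and -0.702 with the mean of the 8 genes. Of 6 genes of the liver X receptor response, which rises with sterol, 0 passed, 4 were negative, and the median was -0.18. Abca1 and Abcg1, its exporters of cholesterol, were at -0.22 ± 0.28 and -0.42 ± 0.28 (SE), and over the arrays they ran against the synthesis genes with an r of -0.756 and -0.754. Abcg1 read 1.16, 1.01, 1.11 and 0.11 in Cre and 0.46, -0.13, 0.91 and 0.47 in CreTW. The centred mean of the osteoclast markers was 0.66, 0.87, 0.65 and -0.56 in Cre and -0.60, -1.44, 0.47 and -0.04 in CreTW. Abca1, Abcg1 and these markers were all lowest in CreTW mouse 2, and among Cre mice in mouse 4. The part of cell makeup in the profiles of Abca1 and Abcg1 was not tested. Of the receptors, Nr1h2 was at -0.14 ± 0.09 (SE) and Nr1h3, the only one of the 6 genes with an unadjusted p under 0.05, at -0.74 ± 0.29 (SE, unadjusted p = 0.0313, adjusted p = 0.420 by limma), with overlapping groups. Ch25h, an enzyme that makes 25-hydroxycholesterol, was well above background on 4 of 8 arrays and stood at 0.79 ± 0.57 (SE). Nr1h3 and Ch25h lie at the ends of the list's range and were named after their values were seen. Mylip, a ubiquitin ligase that the liver X receptors raise, was at 0.04 ± 0.12 (SE).

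Of 7 genes of the isoprenoid branches 0 passed and the median was -0.02. Ggps1, which makes geranylgeranyl diphosphate, was at 0.03 ± 0.12 (SE), and the ubiquinone genes Coq2 and Pdss1 at -0.02 ± 0.07 and 0.09 ± 0.11 (SE). Dhdds, of dolichol synthesis, was at -0.06 ± 0.10 (SE). Over the arrays Coq2 had an r of 0.111 and Pdss1 one of -0.768 with the mean of the 8 genes. Of 10 genes of fatty acid synthesis, driven mainly by SREBP1, 0 passed, 7 were negative, and the median was -0.18. Fasn had an r of 0.994, Me1 of 0.958, Acly of 0.955 and Scd2 of 0.947 with the 8 genes. The rest of this list had an r from 0.268 to 0.963. The differences of Fasn, Me1, Acly and Scd2 were -0.21 ± 0.17, -0.05 ± 0.20, -0.20 ± 0.14 and -0.45 ± 0.21 (SE). Without Cre mouse 4 these were -0.07 for Fasn, 0.15 for Me1, -0.09 for Acly and -0.27 for Scd2.

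Of all features, 653 (2.83%) had an r of at least 0.9 with the mean of the 8 genes. The 5 genes most like it outside the lists were Slc6a12 (0.992), 1700025G04Rik (0.990), Hebp2 (0.986), Eno1 (0.983) and Fxyd2 (0.982), each over 8 arrays. Like profiles over mice went with unlike genotype differences, from 0.37 ± 0.29 for Slc6a12 to -1.57 ± 0.32 for Fxyd2 (SE, adjusted p = 0.142 by limma). Eno1, the glycolytic enolase, was at -0.45 ± 0.16 (SE, adjusted p = 0.385 by limma).

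The signs of the pathway's differences moved with single arrays. Cre mouse 4 was the highest array for all 18 enzymes, so leaving it out could only raise their differences. Without that array the median of the 8 genes was 0.03, with 4 negative and 4 positive, and 10 of 18 enzymes were negative with a median of -0.01. Without CreTW mouse 3 the medians were -0.06 for the 8 genes and -0.09 for the 18 enzymes. Within row 1 of the slide the median of the 8 genes was -0.04 and within row 2, which held both of these arrays, -0.24. In the other direction, all 8 genes were negative without Cre mouse 1, without Cre mouse 3 or without CreTW mouse 2. Their median was -0.27 without Cre mouse 3. Ebp was the least moved, between -0.29 and -0.20 with any 1 array left out, and at -0.30 in row 1 and -0.19 in row 2. Missing the threshold does not show that the genotypes are alike, and the 95% intervals of the 8 genes reach from -0.93 (Fdps) to 0.43 (Srebf2).

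**Figure D4:**
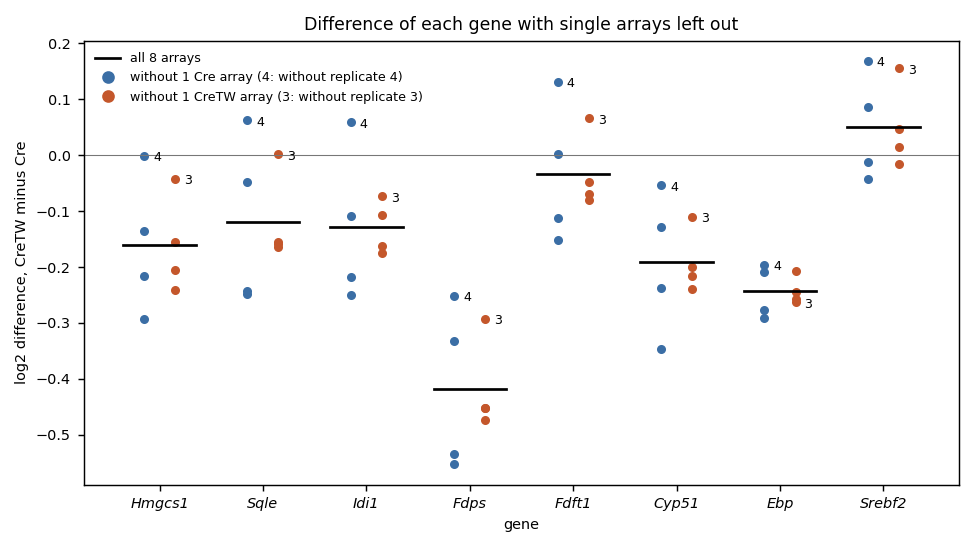
Log2 difference, CreTW minus Cre (vertical), of each of the 8 genes (horizontal) with all 8 arrays (bar) and with each array left out in turn (points, blue for a Cre array and orange for a CreTW array; the labels 4 and 3 mark Cre mouse 4 and CreTW mouse 3). Leaving out Cre mouse 4 gives -0.0011 for Hmgcs1 and a positive value for Sqle, Idi1, Fdft1 and Srebf2, while Ebp stays between -0.29 and -0.20.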

How the data were processed

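Total RNA of growth plate cartilage from 4 Cre and 4 CreTW mice was hybridised to 8 arrays on 1 slide. The intensity values are the processed signal of Agilent Feature Extraction 11.5.1.1, background-subtracted by the authors, per the file headers. The log2 value table deposited by the authors equals the log2 of these signals minus a constant per array (r = 1 on all 8). Its medians lay between -3.03 and -2.93, and its genes were not centred. Here the log2 75th percentile of each array, taken without control probes, was subtracted from its log2 signals. A probe had to clear background on 4 or more of the 8 arrays, and the brightest probe stood for its gene. Probes were named through RefSeq transcripts (GRCm38.p6, names only): of 56605 probes 32994 matched 1 symbol and 23611 none. Genotypes were compared with limma 3.58.1 (lmFit, eBayes) in R 4.3.3, tested on simulated data. The fit had 6 residual and 2.52 prior degrees of freedom.

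The 8 genes, the gene lists and the tests were chosen with earlier results of these data known. Named were the 8 genes, each measured synthesis and sensing gene, the 4 brightest of each other list and the 5 most like profiles. Some genes are not reported here and were left out of the lists before they were counted. Correlations used deviations from genotype means. Alternatives were other scalings, background, probe and filter choices, slide rows, a block, weights, and single arrays left out. The alternatives for the correlations were chosen after seeing the data. Normexp (offset 50) used the median signal, since the files used here give no mean signal.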

Additional observations from a re-analysis of the deposited data

Results flagged for a closer look

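Among the 4 arrays of each genotype, 7 of 82 groups of values (41 named genes in 2 genotypes) had 1 array whose gap to the nearest of the other 3, as a share of the group's range, was past Dixon's 95% critical value. Chance gives this in about 1 group in 20. Of the 8 cholesterol genes, Sqle was 3.22 in CreTW mouse 3 against 3.70 to 3.72 in the other CreTW mice, and Fdps was 3.70 there against 4.18 to 4.25. Fasn at 5.16 (others 5.42 to 5.47) and Tmem97 at 2.98 (others 3.43 to 3.48) were low in the same mouse. In Cre mouse 4, Npc2 at 3.56 (others 3.949 to 4.0045) and Abcg1 at 0.11 (others 1.01 to 1.16) were low. Coq2 was high in CreTW mouse 2, at 2.70 against 2.55 to 2.57.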

How the results depend on the processing

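The 8 genes gave 0 calls under every alternative run, as did the other synthesis enzymes and the companion lists. The signs were less stable: of 184 alternative values of the 8 genes 61 equalled the reported one, mostly because the setting changes the test and not the estimate, and of the other 123, 110 kept their direction and 13 reversed. For the other named genes 248 of 759 were equal, 457 kept their direction and 54 reversed. The median of the 8 genes ranged from -0.27 (without Cre mouse 3) to 0.03 (without Cre mouse 4). The median r of their pairs ranged from 0.876 to 0.948 with 1 array left out. All 8 genes were well above background on all 8 arrays. The cause of the reversals was not tested.

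The count of changed features, 80, became 127 with array weights, 27 with no filter on dim probes, 53 with slide row as a block, and 0 in row 1 alone and 0 in row 2 alone, where 4 arrays remain. With the replicate block it was 12, and the block brought no gene of the lists past the threshold. Same-numbered arrays did not all deviate together (r = -0.01, -0.10, 0.31 and -0.03 for numbers 1 to 4). With number 3 unlike the others, these values cannot decide whether same-numbered mice were paired. What the numbers stand for was not tested. With 1 array left out the count of changed features ran from 42 (without CreTW mouse 4) to 75. Without Cre mouse 3 it was 50 and without Cre mouse 2 it was 51.

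Reversed under array weights were Fdft1 (0.058), Ggps1 (-0.0044), Hsd17b7 (0.080), Mbtps1 (0.02), Me1 (0.028), Msmo1 (0.14), Nsdhl (0.020) and Tm7sf2 (0.022). In slide row 1 alone these were Coq2 (0.037), Erg28 (0.05), Fdft1 (0.16), Hsd17b7 (0.042), Lss (0.033), Me1 (0.12), Msmo1 (0.19), Mvk (0.0021), Mylip (-0.11), Sc5d (0.0057), Sqle (0.094) and Tm7sf2 (0.070). In slide row 2 alone they were Abca1 (0.39), Abcg1 (0.082), Dhdds (0.10), Ggps1 (-0.017), Insig2 (0.045), Npc2 (0.20), Scap (-0.065) and Srebf2 (-0.19). Normexp reversed Coq2 (0.0017), Dhdds (0.040) and Pdss1 (-0.0032), the mean of probes Dhdds (0.017), Msmo1 (0.0024) and Tm7sf2 (0.011), and quantile normalization Msmo1 (0.0073).

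With 1 array left out, the following changed sign within their range. Of the 8 genes these were Fdft1 (-0.15 to 0.13), Idi1 (-0.25 to 0.059), Sqle (-0.25 to 0.063) and Srebf2 (-0.042 to 0.17). Of the others they were Ggps1 (-0.051 to 0.082), Hsd17b7 (-0.24 to 0.11), Mbtps1 (-0.11 to 0.0053), Me1 (-0.18 to 0.15), Msmo1 (-0.15 to 0.22), Mylip (-0.034 to 0.13), Npc2 (-0.12 to 0.045), Nsdhl (-0.17 to 0.079), Sc5d (-0.36 to 0.0074), Scap (-0.025 to 0.069) and Tm7sf2 (-0.14 to 0.055). Others kept their sign but moved by over 1.5 times: Hmgcs1 (-0.29 to -0.0011), Cyp51 (-0.35 to -0.054), Fdps (-0.55 to -0.25), Mvk (-0.32 to -0.079), Mvd (-0.40 to -0.11), Lss (-0.34 to -0.035), Erg28 (-0.21 to -0.022), Insig1 (-0.38 to -0.070), Insig2 (-0.44 to -0.20), Srebf1 (-0.32 to -0.13), Npc1 (-0.10 to -0.0073), Scarb1 (-0.32 to -0.13), Nr1h2 (-0.19 to -0.083), Abca1 (-0.43 to -0.063), Abcg1 (-0.66 to -0.23), Fasn (-0.32 to -0.072), Acly (-0.28 to -0.087), Scd2 (-0.57 to -0.27), Pdss1 (0.0091 to 0.17), Dhdds (-0.12 to -0.018) and Coq2 (-0.049 to -0.0003).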
